A study of Drosophila melanogaster with 24 samples.

Results

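Injured flies homozygous for the Rel deletion (Reldel/Reldel) were compared with injured flies heterozygous for it (+/Reldel), with 4 libraries on each side, which are 8 of the 24 libraries sequenced. These libraries were taken by their labelled genotype and injury state, and no measured value entered the choice. RNA came from whole male flies aged 1 to 7 days and kept at 25 °C, and the injured flies had received a traumatic brain injury 4 h before they were frozen. Uninjured flies of both genotypes and wild-type flies (+/+), injured and uninjured, were measured in 4 libraries per group as well and are used here as background. All genotypes were labelled as yw, so the markers y and w are shared by every group. The comparison sets 0 copies of Rel against 1 copy, and neither side has the wild-type number. The labels do not say how the genotypes were bred, how many flies went into a library, or whether libraries of a group came from different cultures. A p-value here therefore reflects only how libraries scatter within their groups, over all 24 in the main fit. In RNA of whole flies, fewer cells of a type and less RNA per cell cannot be told apart.

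Rel encodes Relish, the NF-κB transcription factor at the end of the Imd pathway. Peptidoglycan recognition proteins bind fragments of bacterial cell wall, the adaptor Imd and the kinases and caspase below it lead to cleavage of Relish, and the freed Rel domain enters the nucleus and switches on genes such as the diptericins, attacins and cecropins in the fat body. The Toll pathway works in parallel through the NF-κB factors Dif and Dorsal and is best known for drosomycin and the Bomanins. Several antimicrobial peptide genes respond to both pathways. The series was titled for survival after brain injury in Rel heterozygotes. In flies, brain trauma is known to switch on antimicrobial peptide genes within hours.

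Counts were expressed as CPM, the share of the effective library size scaled to a fixed total, and a gene was called when the adjusted p of edgeR's quasi-likelihood test (Benjamini-Hochberg, over 13868 tested genes) was below 0.05. A log2 fold change sets homozygotes against heterozygotes and is followed by its standard error, and a mean CPM is followed by the SD (n = 4). The 8 libraries held 6715949 to 14660491 counts, and 3 counts correspond to 0.205 to 0.447 CPM in them. Homozygous injured library 1 stood apart from the others of its group. Its correlation with them across genes was 0.9502 to 0.960 (log2 CPM), against 0.981 to 0.992 among the other 3 homozygous libraries and 0.976 to 0.986 among the heterozygous ones. The summed level of 18 neuron genes was 3794 CPM in that library and 1448 to 1973 CPM in the other 7, and the summed level of 22 JNK, wound and cell death genes was 2562 CPM against 1548 to 2071 CPM. Counts of calls are therefore also given without it. Markers of males were high, as labelled: 25 accessory gland and ejaculatory duct genes summed to 11447 to 25871 CPM, and 22 female and ovary genes to 7.21 to 15.3 CPM. In 1 injured wild-type library the female sum reached 390 CPM, and its part in the wild-type values given below was not tested.

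After injury 126 of 13868 genes differed between homozygotes and heterozygotes (0.909%), 105 of them lower in homozygotes (0.757%) and 21 higher (0.151%). The lower genes fell by more: 80 of 105 differed at least 2-fold and 47 at least 4-fold, against 12 and 3 of the 21 higher genes. The libraries of the 2 genotypes did not overlap for 98 of the 105 lower and all 21 higher genes, where 3.44% of all tested genes did not overlap. The genes were called from these same libraries, so the separation is no independent support for the calls. Without homozygous injured library 1 the test called 113 genes, 99 lower and 14 higher, and 101 of them were among the 126. These fits took the spread from all groups, and a fit of only the 8 libraries compared called 57 genes. The median log2 fold change of all tested genes was 0.00.

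Rel itself was the largest loss. The gene lies on chromosome arm 3R, 9044183 to 9047977 (dm6, minus strand). It was at 85.2, 42.5, 68.6 and 51.2 CPM in the 4 injured heterozygous libraries and had 0 counts in each of the 4 injured homozygous libraries. The heterozygous level was at least 851-fold higher, with 3 counts assumed over the homozygous group (adjusted p = 1.51e-11). Injured wild-type flies had 145 ± 22.6 CPM, so the heterozygous mean of 61.9 ± 19.0 CPM lay between both. Of the 5 nearest genes on each side of Rel, all 10 were tested and 0 were called. Nmdmc, a folate-cycle dehydrogenase whose gene overlaps Rel on the same strand, was at 59.7, 33.3, 41.6 and 36.1 CPM in heterozygotes and 31.3, 52.9, 39.0 and 28.7 CPM in homozygotes (-0.17 ± 0.19, adjusted p = 0.830). The libraries of both genotypes overlapped for it, and its estimate changed sign without heterozygous injured library 1. Among the 10 neighbours the estimates ran from -0.91 for asRNA:CR31429 to 0.24 for hyx.

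**Figure D1:**
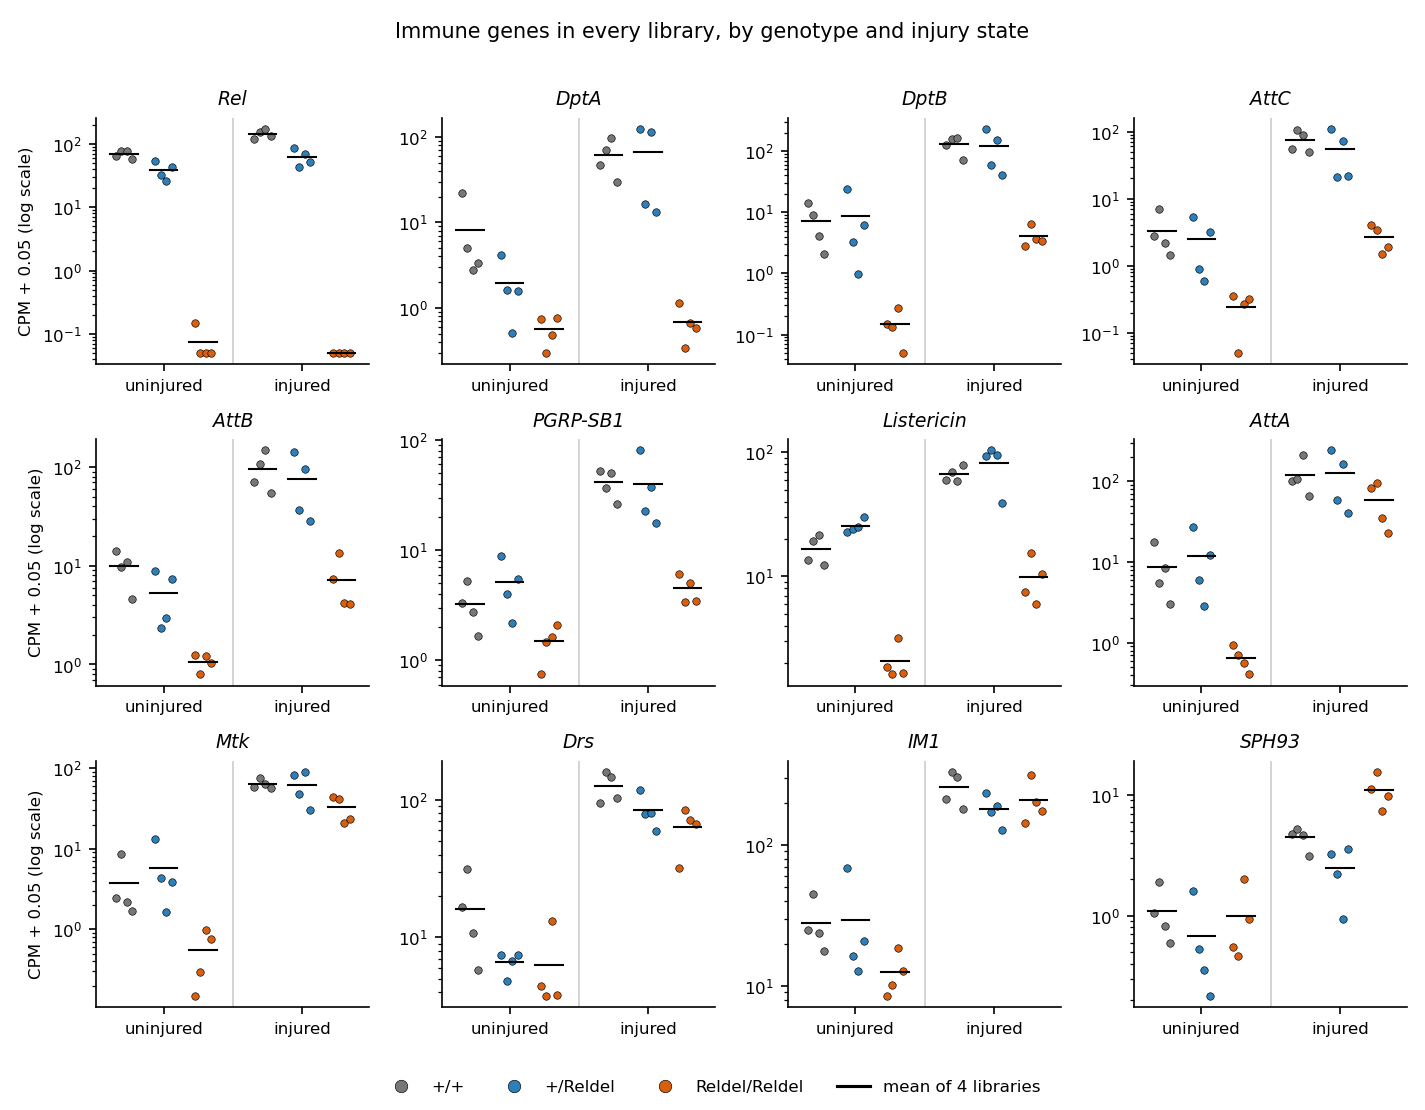
Level of Rel and 11 immune genes in every library, as CPM + 0.05 on a log axis, uninjured on the left and injured on the right of each panel; points are libraries, coloured by genotype, and bars are means of 4. The injured homozygous libraries lie below all injured heterozygous ones for Rel, DptA, DptB, AttC, AttB, PGRP-SB1 and Listericin, overlap them for AttA, Mtk, Drs and IM1, and lie above them for SPH93.

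Antimicrobial peptide genes were lower in injured homozygotes than in injured heterozygotes: 10 of 14 tested members of the list were called lower, 0 higher and 4 did not pass, and all 14 estimates were below 0. Over all tested genes 0.757% were called lower and 0.151% higher. The median of the list was -3.28. Without injury it was nearly the same, -3.27, with 4 members called lower and 0 higher. The tested members left out edin, which was too low. Without homozygous injured library 1 the count called lower after injury was 9, and over the 8 fits with 1 library left out it was 8 to 11. A fit of only the 8 libraries compared called 7 members lower and 0 higher. These peptides kill bacteria or fungi by acting on their envelopes, and the list joins targets of both NF-κB pathways.

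The diptericins, glycine-rich peptides against Gram-negative bacteria and the classical readout of Imd signalling, were among the genes with the largest fall. DptA was at 123, 16.3, 114 and 13.1 CPM in the heterozygous libraries and 1.09, 0.293, 0.610 and 0.526 CPM in the homozygous ones. Every homozygous library lay below every heterozygous one, and heterozygous libraries 1 and 3 stood well above 2 and 4. The log2 fold change was -6.76 ± 0.92 (adjusted p = 0.000101). DptB, its neighbour on chromosome arm 2R, was at 229, 59.2, 153 and 40.2 CPM in heterozygotes and 2.79, 6.44, 3.59 and 3.31 CPM in homozygotes (-4.93 ± 0.73, adjusted p = 0.000280). The groups were again apart, with the same pair of heterozygous libraries on top. DptB overlaps CG43109 on the other strand, and the labels do not say whether counting used strand, so their reads cannot be told apart. The same holds for AttC with CG4744, Def with magu, PGRP-LB with CG17230, SPH93 with CG5050, Hsp27 with CR43483, GstE1 with GstE10, sad with CG6962, Gld with lncRNA:CR44338 and CG17264 with alpha4GT1. Mtk with Stacl, CG43680 with Sytbeta and nkd with lncRNA:CR45940 overlap on the same strand.

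The attacins, larger glycine-rich proteins, did not all do the same. AttC was at 109, 20.7, 71.7 and 21.5 CPM in heterozygotes and 4.03, 3.36, 1.42 and 1.88 CPM in homozygotes (-4.49 ± 0.63, adjusted p = 0.000141). AttB was at 143, 36.4, 96.4 and 28.1 CPM and 7.29, 13.3, 4.13 and 4.06 CPM (-3.47 ± 0.52, adjusted p = 0.000333). Homozygotes lay below heterozygotes throughout for both genes. AttD, an attacin without a signal for secretion, had 1 count in all over the homozygous libraries and 10.4, 2.24, 3.31 and 1.63 CPM in the heterozygous ones, a ratio of 183 (32.9 to 7238, exact Poisson interval of the lower count; adjusted p = 0.00169). AttA was at 241, 58.9, 164 and 40.3 CPM in heterozygotes and 82.3, 95.9, 35.0 and 22.6 CPM in homozygotes, and its groups overlapped (-1.11 ± 0.59, adjusted p = 0.582). AttA and AttB are near-identical neighbours, so reads can be shared between them and their single values are uncertain.

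The cecropins, short helical peptides encoded together on chromosome arm 3R, were called lower in all 4 cases. CecC was at 6.40, 2.09, 4.12 and 2.04 CPM in heterozygotes and had 7 counts in all in homozygotes, at 0.146 to 0.203 CPM (-4.36 ± 0.67, adjusted p = 0.000400). CecB was at 0.745 to 3.58 CPM against 0 to 0.451 CPM (-3.09 ± 0.66, adjusted p = 0.0198), and CecA2 at 0.409 to 8.19 CPM against 0.310 to 0.881 CPM (-2.61 ± 0.58, adjusted p = 0.0236). The CecA2 libraries overlapped because heterozygous library 4 was at 0.409 CPM. CecA1 was the least lowered, at 19.4, 24.9, 30.3 and 10.1 CPM against 8.68, 12.9, 6.57 and 8.04 CPM with overlap (-1.26 ± 0.24, adjusted p = 0.00546). Cecropin copies are alike enough to share reads. The calls of CecA2 and CecB each ended when 1 of several libraries was left out (highest adjusted p 0.114 and 0.112), homozygous injured library 1 among them for CecA2 (0.0806). The estimate of CecA2 was -1.998 without heterozygous library 1 and that of CecB -3.78 without homozygous library 4.

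Def, the insect defensin active mainly against Gram-positive bacteria, was at 7.15, 8.42, 3.95 and 1.498 CPM in heterozygotes and 0, 0.146, 0.0678 and 0.1502 CPM in homozygotes, 4 counts in all (-5.64 ± 0.76, adjusted p = 0.0001002). Its homozygous libraries all lay below the heterozygous ones. Listericin, an antibacterial peptide that is not on the list and was chosen after its values were seen, was at 93.8, 104, 94.8 and 39.0 CPM and 7.44, 15.5, 5.96 and 10.4 CPM (-3.10 ± 0.29, adjusted p = 4.67e-07). Its groups were apart too, although heterozygous library 4 was well below the other 3.

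Besides AttA, 3 members did not pass. Mtk, the antifungal metchnikowin, was at 82.8, 47.5, 90.4 and 30.6 CPM in heterozygotes and 44.3, 41.98, 20.7 and 23.2 CPM in homozygotes (-0.97 ± 0.46, adjusted p = 0.539). Drs, the antifungal drosomycin, was at 118, 78.5, 80.8 and 59.3 CPM and 32.1, 84.7, 71.2 and 67.0 CPM (-0.40 ± 0.39, adjusted p = 0.797). The groups overlapped for both, and the lowest Drs value was that of homozygous library 1. Dro, drosocin, was at 27.0, 13.6, 27.5 and 4.90 CPM and 8.68, 5.56, 2.58 and 3.61 CPM (-1.91 ± 0.56, adjusted p = 0.157), with overlap through heterozygous library 4. Without that library Dro passed (adjusted p = 0.0494), and the list then had 11 members called lower.

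The heterozygous libraries varied widely in these genes. Libraries 1 and 3 held the 2 highest heterozygous values for 12 of the 14 tested antimicrobial peptides, and the 15 members summed to 1131, 373, 847 and 256 CPM in the 4 heterozygous libraries against 192, 265, 147 and 136 CPM in the homozygous ones. The sums overlapped because heterozygous library 4 lay below homozygous library 2. AttA and Drs made up most of the homozygous sum. In injured wild-type libraries the sum was 499 to 1007 CPM.

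**Figure D2:**
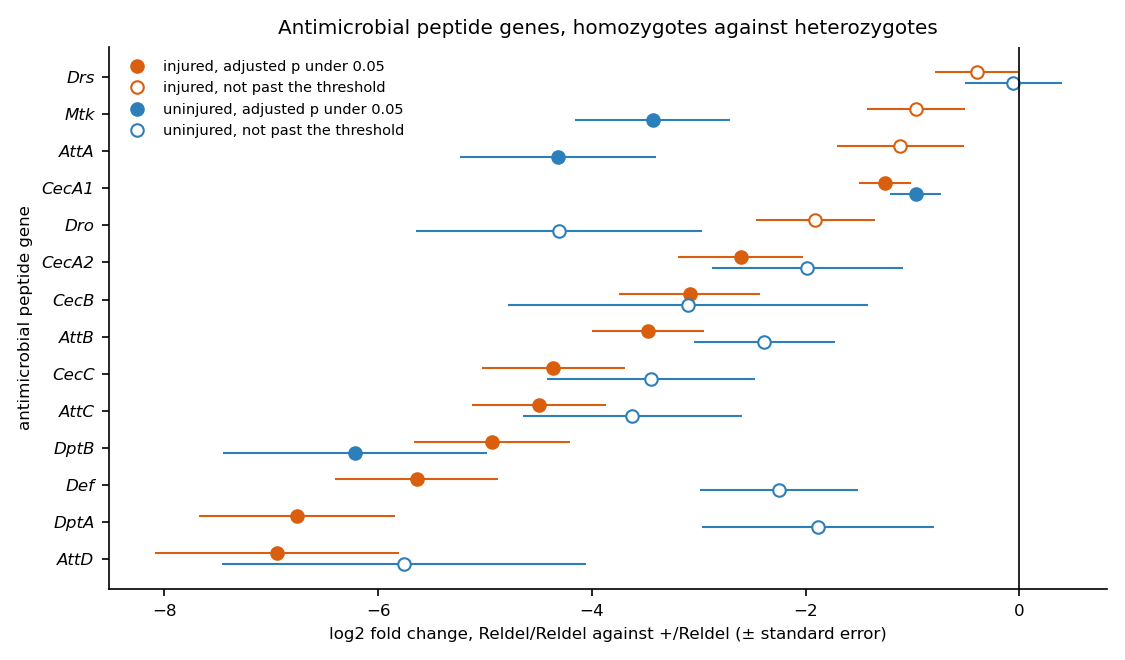
Log2 fold change of each tested antimicrobial peptide gene, homozygotes against heterozygotes, with its standard error; orange is after injury, blue without injury, and filled points are past the threshold. All 14 injured estimates lie below 0, and 10 of them are filled; AttA, Mtk, Dro and Drs are open after injury.

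The peptidoglycan recognition proteins comprise sensors, such as PGRP-LC, and amidases that cut the ligand and dampen the pathway. Of 14 tested members of that list, which also holds the GNBP genes, 2 were lower, 0 higher and 12 did not pass, with a median of -0.31. Over all tested genes 0.757% were lower. PGRP-SB1, a secreted amidase, was at 80.4, 22.7, 37.2 and 17.4 CPM in heterozygotes and 6.05, 3.36, 5.02 and 3.38 CPM in homozygotes (-3.16 ± 0.45, adjusted p = 0.000182). PGRP-LB, the amidase that limits Imd signalling, was at 21.3, 14.4, 16.4 and 11.3 CPM and 8.53, 9.95, 8.07 and 8.64 CPM (-0.86 ± 0.18, adjusted p = 0.0155). The estimate of PGRP-SB1 was -2.54 without heterozygous library 1. The groups did not overlap for either gene, but the call of PGRP-LB ended without heterozygous library 1 (adjusted p = 0.0767) or homozygous library 3 (0.0742) or 4 (0.0553). PGRP-SC1b, a gut amidase with near-identical copies, was at 1.53 to 4.63 CPM against 0 to 0.3005 CPM without overlap and did not pass (-4.72 ± 1.18, adjusted p = 0.0603), its estimate being -6.19 without homozygous library 4. PGRP-SC2 was also apart, at 8.23 to 17.0 CPM against 2.33 to 7.14 CPM, with an adjusted p of 0.481. Among the sensors, PGRP-LC was at 53.4 ± 10.3 and 40.1 ± 5.03 CPM (-0.41 ± 0.16, adjusted p = 0.417) and PGRP-SA, a sensor of the Toll pathway, at 28.4 ± 7.18 and 16.0 ± 8.04 CPM (-0.84 ± 0.27, adjusted p = 0.233). Neither passed, and PGRP-SA passed without homozygous library 2 (adjusted p = 0.0400).

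Of the 19 genes of the Imd cascade inside the cell, Rel was the only one called. The other 18 had estimates from -1.07 for pirk to 0.27 for key. pirk, a negative regulator that is itself induced by the pathway, was at 13.3, 6.71, 11.8 and 8.31 CPM in heterozygotes and 5.74, 6.73, 2.30 and 4.88 CPM in homozygotes (-1.07 ± 0.31, adjusted p = 0.152), with slight overlap. key, the regulatory subunit of the IKK complex, was at 56.7 to 68.0 CPM against 68.7 to 87.4 CPM without overlap (0.27 ± 0.10, adjusted p = 0.344). imd, the adaptor, was at 17.4 ± 1.88 and 14.3 ± 1.33 CPM (-0.28 ± 0.11, adjusted p = 0.422).

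The Bomanins, short secreted peptides needed for Toll-dependent resistance, were mostly not called. Of 22 tested Bomanins and other Toll peptides, 1 was lower, 1 higher and 20 did not pass, with a median of 0.08. Over all tested genes 0.757% were lower and 0.151% higher. IM1 was at 235, 173, 189 and 128 CPM in heterozygotes and 144, 313, 202 and 174 CPM in homozygotes (0.20 ± 0.39, adjusted p = 0.920). IM2 was at 148 ± 40.6 and 168 ± 65.1 CPM (0.18 ± 0.34, adjusted p = 0.913), and both signs turned without homozygous library 2. IM3 was at 195 to 333 CPM against 237 to 959 CPM (0.78 ± 0.37, adjusted p = 0.534), its highest value being that of homozygous library 1, without which the estimate was 0.17. Bomanin genes are near-identical copies in part, and their single values are uncertain.

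SPH93, a serine protease homologue, was the member that rose. It was at 3.20, 2.16, 0.888 and 3.54 CPM in heterozygotes and 11.2, 15.5, 7.25 and 9.84 CPM in homozygotes, all homozygous libraries above all heterozygous ones (2.18 ± 0.46, adjusted p = 0.0147). Injured wild-type flies had 4.404 ± 0.931 CPM. The call ended without heterozygous library 2 (adjusted p = 0.0664) or 3 (0.0746) or homozygous library 2 (0.0617). IM18, which overlaps CG10332 on the same strand, was lower, at 41.0, 39.0, 45.4 and 32.3 CPM against 21.4, 25.01, 27.8 and 29.1 CPM (-0.61 ± 0.12, adjusted p = 0.00540). Its groups did not overlap.

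Other injury pathways gave no call with all libraries. Of 20 Toll pathway genes the estimates ran from -0.84 for PGRP-SA to 0.41 for spz, with a median of 0.04. Of 17 tested JAK-STAT and Turandot genes they ran from -0.21 for TotM to 0.57 for TotX, with a median of 0.15. Of 21 tested JNK, wound and cell death genes they ran from -0.33 for Traf4 to 0.50 for rpr, with a median of 0.10. The lists for digestive enzymes, hemocytes and melanization, fat body, eye, neuron, glia, muscle, testis, accessory gland, female genes and stock markers had 0 calls in either direction. Exceptions with 1 library left out were 4 accessory gland genes lower without heterozygous library 1, 1 lower without heterozygous library 4, and 1 neuron gene higher without homozygous library 4. Among these lists, neuron genes had a median of 0.38 and the list summed highest in homozygous library 1, and accessory gland genes had a median of -0.36 with 23 of 25 estimates below 0. The part of these levels in the results for other genes was not tested.

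Of 19 tested heat shock genes 1 was lower, 0 higher and 18 did not pass, where 0.757% of all tested genes were lower. Hsp27, a small heat shock protein, was at 25.9, 38.0, 22.6 and 33.5 CPM in heterozygotes and 14.73, 17.0, 17.4 and 15.5 CPM in homozygotes (-0.89 ± 0.21, adjusted p = 0.0342). The groups were apart, but the call ended in 6 of the 8 fits with 1 library left out, the one without homozygous library 1 included (0.109). Hsp26, its neighbour on 3L, was at 45.5 to 65.5 CPM against 25.7 to 45.7 CPM and did not pass (-0.62 ± 0.17, adjusted p = 0.126). CG4456 and asRNA:CR43481, named after their values were seen, form a run of 3 genes called lower with Hsp27. Over the same 8 fits CG4456 kept its call in 8 and asRNA:CR43481 in 4. On 3L 1.72% of tested genes were called.

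Of 34 tested detoxification genes 5 were lower, 1 higher and 28 did not pass, with a median of 0.05. The shares over all tested genes were 0.757% lower and 0.151% higher. All 5 lower genes lie on 3R, where 1.48% of tested genes were called. Ugt35B1, a glycosyltransferase that couples sugars to small molecules, was at 53.6, 79.9, 94.1 and 84.2 CPM in heterozygotes and 0.775, 1.76, 1.02 and 0.751 CPM in homozygotes. The groups were far apart (-6.23 ± 0.22, adjusted p = 2.93e-15).

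The other 4 are glutathione S-transferases of the delta class, enzymes that conjugate glutathione to oxidised or foreign compounds, and they lie side by side. GstD4 was at 2.45, 1.27, 1.94 and 2.18 CPM in heterozygotes and 0, 0.146, 0.203 and 0.526 CPM in homozygotes (-2.86 ± 0.58, adjusted p = 0.0102). GstD5 was at 35.6, 15.6, 51.3 and 46.9 CPM and 3.41, 4.68, 3.73 and 19.0 CPM (-2.22 ± 0.45, adjusted p = 0.0102). The GstD4 libraries were apart, while homozygous library 4 reached into the heterozygous range for GstD5. Without that library the estimates were -3.70 for GstD4 and -3.24 for GstD5. GstD2 (-1.61 ± 0.39, adjusted p = 0.0445) and GstD1 (-0.74 ± 0.17, adjusted p = 0.0236), named after their values were seen, were lower without overlap. GstD3, which is not on the list and was named after its values were seen, completed a run of 5 neighbouring genes at 3R:12367817-12376572. It was at 31.7, 23.6, 32.8 and 28.7 CPM in heterozygotes and 12.6, 10.5, 11.3 and 11.6 CPM in homozygotes (-1.34 ± 0.15, adjusted p = 3.83e-06). Without heterozygous library 1 or homozygous library 1 or 4 the list had 3 members called lower, GstD1 and GstD2 being lost (adjusted p = 0.0946 and 0.160 without homozygous library 1), and without homozygous library 3 it had 1 such member, GstD4 and GstD5 being lost too (0.0654 and 0.0585). The copies are alike enough that reads may be shared. GstE1, of the epsilon class on 2R, was higher, at 34.2, 33.2, 32.0 and 36.0 CPM against 55.7, 44.3, 41.7 and 41.2 CPM (0.43 ± 0.10, adjusted p = 0.0222), a call lost without heterozygous library 2 (0.0814) or 3 (0.0979) or homozygous library 1 (0.0658).

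Most of the genes that differed after injury differed between the uninjured genotypes as well, in 8 libraries that share none with the injured ones. Of the 105 lower genes 103 had an estimate of the same sign without injury, as 47% of all tested genes did, and 68 (64.8%) were called lower there. In all, 191 genes were called without injury (1.38%), 152 lower (1.1%) and 39 higher (0.281%). Of the 21 higher genes 20 had the same sign and 9 (42.9%) were called. The 77 shared genes were 61.1% of the 126 called after injury and 40.3% of the 191 called without it. These calls share the fit over all 24 libraries. When each state was fitted on its own 8 libraries, 57 and 95 genes were called and 30 were shared. The uninjured count depended on single libraries: leaving out heterozygous uninjured library 3 gave 607 calls and 86 shared genes, and the other 7 fits gave 107 to 164 calls and 65 to 73 shared genes.

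**Figure D3:**
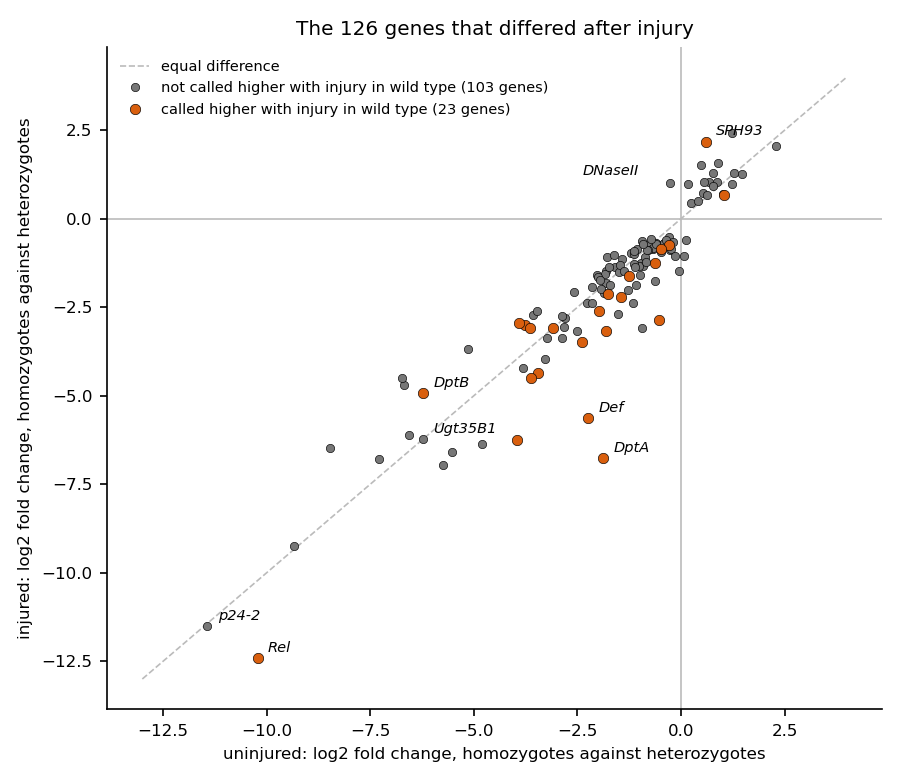
Each point is 1 of the 126 genes called after injury; the x axis is its log2 fold change between the uninjured genotypes and the y axis that between the injured ones, homozygotes against heterozygotes, with the dashed line at equal values. Points in orange were called higher with injury in wild type; DptA and Def lie well below the line, and values beyond about -9 belong to genes with 0 or 1 counts in homozygotes, whose fitted size depends on the prior count.

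The lower genes were sorted by whether they were called higher with injury in wild type and called between the uninjured genotypes. Such sorting by threshold does not show that the groups differ between the states. The direct test of that difference, given below, called 0 genes. Of the 105, 21 (20%) rose with injury in wild type, as 3.35% of all tested genes did, and 17 of those 21 were not called between the uninjured genotypes. Another 64 did not rise in wild type and were called lower without injury too, and 20 met neither condition. DptA, Def, AttC, AttB, CecC, CecB, PGRP-SB1 and PGRP-LB are in the first group, and p24-2, Ugt35B1 and CG13675 in the second.

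Within each genotype, antimicrobial peptides were called higher with injury as well. In heterozygotes 13 of 14 tested members were called higher, where 3.24% of all tested genes were, and in homozygotes 7 of 14, where 4.71% were. In wild type the count was 12. These contrasts share the injured libraries with the main comparison, and their values are given side by side. On the log2 scale, DptA rose by 5.11 ± 0.78 in heterozygotes (adjusted p = 0.000273) and had an estimate of 0.24 ± 1.35 in homozygotes (adjusted p = 0.939). AttA rose by 3.38 ± 0.65 in heterozygotes (adjusted p = 0.00238) and by 6.59 ± 0.89 in homozygotes (adjusted p = 4.22e-05). Mtk and Dro likewise passed in both genotypes, with 5.91 ± 0.68 and 6.52 ± 1.10 in homozygotes. These rises start from the uninjured homozygous level, which for AttA and Mtk was called lower than the heterozygous one. Between the injured genotypes the estimates of Mtk and Dro were negative and did not pass. Drs rose by 3.66 ± 0.45 and 3.33 ± 0.44. Bomanins and other Toll peptides were called higher with injury for 18 of 22 members in heterozygotes and 17 of 22 in homozygotes.

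The difference itself between the injury responses of the 2 genotypes gave 0 calls of 13868 (0%) with edgeR, while 1433 genes (10.3%) had an unadjusted p below 0.05. DESeq2 called 1 gene, the serpin Spn88Eb, with the higher response in homozygotes (2.55 ± 0.53, adjusted p = 0.0236). For DptA the difference of responses was -4.87 ± 1.67 (adjusted p = 0.478): the uninjured means were 1.91 ± 1.55 CPM in heterozygotes and 0.524 ± 0.224 CPM in homozygotes, with overlap. For AttA it was 3.20 ± 1.12 (adjusted p = 0.478), from 11.97 ± 10.8 and 0.606 ± 0.231 CPM, and AttA had been called lower in uninjured homozygotes (-4.32 ± 0.91, adjusted p = 0.0130). Mtk was also called lower without injury (-3.43 ± 0.72, adjusted p = 0.0127) but not after it. DptB and CecA1 were the members of the antimicrobial peptide list called lower in both states. That a gene passed in 1 state and not in the other does not show that the states differ, and none of these differences passed.

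The largest decreases outside immunity were of genes with few or no counts in injured homozygotes. p24-2, of the p24 family of cargo receptors between the endoplasmic reticulum and the Golgi, was at 43.1, 32.9, 19.9 and 36.6 CPM in injured heterozygotes and had 0 counts in all 4 injured homozygous libraries, so it was at least 446-fold higher in heterozygotes (adjusted p = 1.56e-08). Unc-115b, related to actin-binding LIM proteins, overlaps p24-2 on the same strand and reads can be shared between them. It was at 32.1, 29.7, 45.6 and 66.5 CPM in heterozygotes and 1.55, 0.731, 0 and 0 CPM in homozygotes (-6.78 ± 0.62, adjusted p = 3.26e-07). Its estimate was -8.10 without homozygous library 1 and -6.17 without homozygous library 3. Its paralog next to it, Unc-115a, chosen after its values were seen, was lower by less (-0.61 ± 0.11, adjusted p = 0.00187). CG43680 was at 7.34, 8.57, 7.34 and 3.95 CPM in heterozygotes and at 0 counts in homozygotes, a level at least 98.5-fold higher. lncRNA:CR46350 had 49 counts over the heterozygous group and 0 over the homozygous one, at least 15.4-fold higher. CG13675 was at 8.05 to 17.6 CPM against 0 to 0.310 CPM (-6.48 ± 0.46, adjusted p = 2.52e-09), and lncRNA:CR45045, annotated as the protein-coding CG45045 in the current release and overlapping CG14322 on the same strand, at 3.13 to 17.6 CPM against 0 to 0.293 CPM (-6.25 ± 0.83, adjusted p = 7.30e-05). The estimate of CG13675 was -7.32 without homozygous library 3, and that of lncRNA:CR45045 ran from -5.57 without heterozygous library 3 to -6.91 without homozygous library 2. In all, 6 of the 105 lower genes had 0 counts over the injured homozygous group, Rel, p24-2, CG43680 and lncRNA:CR46350 among them.

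Several of these genes were higher still in wild type. p24-2 was at 62.3 ± 22.5 CPM in injured wild type against 33.1 ± 9.76 CPM in injured heterozygotes. Ugt35B1 was at 202 ± 19.9 against 78.0 ± 17.3 CPM, and CG43680 at 20.2 ± 2.67 against 6.80 ± 1.99 CPM. Over all 105 lower genes, the means of the uninjured libraries, which are not in the contrast but share its filter and its estimate of the spread, were ordered wild type over heterozygote over homozygote for 89 (84.8%), as for 14.4% of all tested genes. Over the 21 higher genes the opposite order held for 17 (81%), as for 17.2% of all tested genes. Of the 105 and the 21, 103 and 20 had the same sign between the uninjured genotypes, so mainly the place of wild type was open. The shares over all tested genes include both signs, and shares among genes of the same sign were not computed.

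Further lower genes, chosen after their values were seen, had larger counts or other functions. CG31226 was at 321, 406, 467 and 333 CPM in injured heterozygotes and 49.0, 78.2, 80.9 and 85.2 CPM in injured homozygotes (-2.38 ± 0.15, adjusted p = 3.75e-10), with 631 ± 47.0 CPM in injured wild type. sad, a P450 of ecdysteroid synthesis, was at 5.49 to 10.2 CPM against 0.465 to 1.65 CPM (-2.81 ± 0.38, adjusted p = 0.0001003), with 20.7 ± 6.28 CPM in injured wild type. Cyp12c1, a mitochondrial P450, was at 12.7 to 27.3 CPM against 2.33 to 7.89 CPM (-2.06 ± 0.30, adjusted p = 0.000274). Each of these kept its groups apart. Spn77Bb, a serpin, was at 661 ± 139.6 and 258 ± 55.8 CPM (-1.36 ± 0.19, adjusted p = 0.000118). Gld, glucose dehydrogenase, was at 168 ± 16.5 and 109.6 ± 13.5 CPM (-0.62 ± 0.13, adjusted p = 0.0136), which no longer passed without heterozygous library 3 (0.0598) or homozygous library 1 (0.0530). Of the odorant-binding proteins, Obp56a (-1.82 ± 0.28, adjusted p = 0.000394) and Obp56h (-1.46 ± 0.32, adjusted p = 0.0185) were lower, the call of Obp56h ending in 4 of the 8 fits with 1 library left out, as was the sodium channel gene ppk6 (-2.69 ± 0.30, adjusted p = 6.57e-06), at -3.30 without homozygous library 4.

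**Figure D4:**
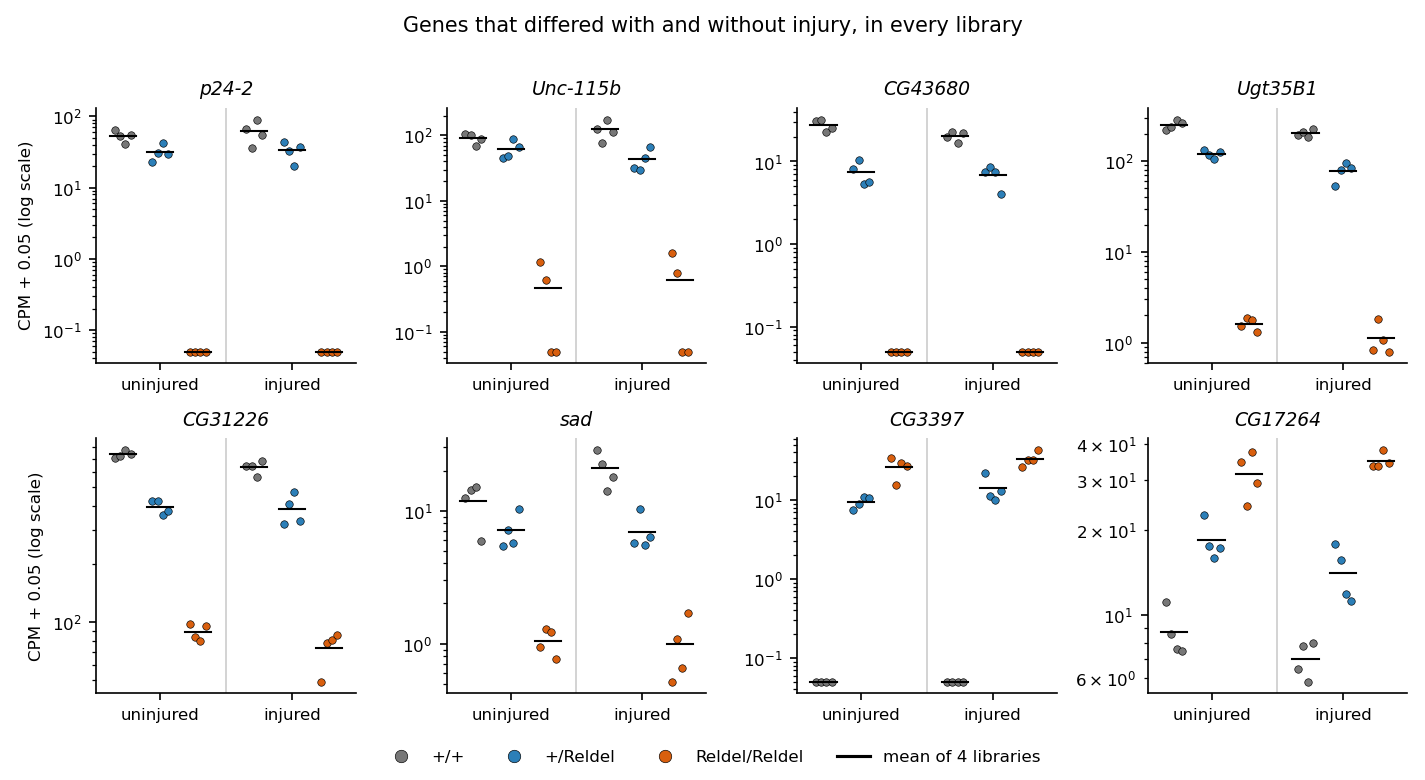
Level in every library, as CPM + 0.05 on a log axis, of 6 genes lower and 2 genes higher in homozygotes, uninjured on the left and injured on the right; points are libraries, coloured by genotype, and bars are means of 4. p24-2 and CG43680 are at 0 in all 8 homozygous libraries, CG3397 is at 0 in all 8 wild-type libraries, and the heterozygous means lie between wild type and homozygotes in each panel.

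Genes higher in injured homozygotes were fewer and changed by less. Of the 21, 7 held their call in each of the 8 fits with 1 library left out, against 66 of the 105 lower genes. Eh, the eclosion hormone that triggers ecdysis, was at 0.188, 0.745, 0.403 and 0.545 CPM in heterozygotes and 2.02, 3.95, 2.78 and 1.73 CPM in homozygotes (2.42 ± 0.53, adjusted p = 0.0211). CCHa2, a peptide hormone linked to nutrition, was at 9.503, 8.27, 5.97 and 10.8 CPM and 25.3, 16.5, 12.8 and 16.8 CPM (1.05 ± 0.23, adjusted p = 0.0198). Both were apart between the genotypes, and CCHa2 lost its call without heterozygous library 2 (0.0748) or 3 (0.111) or homozygous library 1 (0.0991). nkd, a feedback inhibitor of Wingless signalling, was at 25.9 to 34.6 CPM in heterozygotes and 106, 44.9, 49.1 and 46.6 CPM in homozygotes (1.05 ± 0.20, adjusted p = 0.00428). Without homozygous library 1, the highest for nkd, its estimate was 0.66 and still passed (adjusted p = 0.00240). DNaseII, an acid nuclease of lysosomes, was at 18.9 to 29.9 CPM against 34.9 to 54.7 CPM (1.01 ± 0.22, adjusted p = 0.0190) and lost its call without homozygous library 1 (0.0712). Of the 21 higher genes it was the 1 whose uninjured estimate had the opposite sign (-0.26 ± 0.22, adjusted p = 0.595).

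CG3397 had 0 counts in all wild-type libraries, 21.6, 11.3, 10.01 and 13.1 CPM in injured heterozygotes and 25.9, 32.5, 32.3 and 43.2 CPM in injured homozygotes (1.26 ± 0.26, adjusted p = 0.0190). Its injured homozygous level was at least 471-fold that of injured wild type. CG17264 was at 17.8, 15.6, 11.8 and 11.2 CPM in heterozygotes and 33.3, 33.3, 38.2 and 34.3 CPM in homozygotes (1.30 ± 0.17, adjusted p = 5.32e-05), against 6.95 ± 1.04 CPM in injured wild type. CG33926, called Srg3 in the current annotation, was at 2.45 to 6.96 CPM against 13.3 to 22.7 CPM (2.04 ± 0.36, adjusted p = 0.00232). CG16772 was at 69.2 to 78.4 CPM in heterozygotes and 417, 213, 97.1 and 121 CPM in homozygotes (1.52 ± 0.30, adjusted p = 0.00946), highest in homozygous library 1, and its estimate was 0.96 without that library. The noncoding CG32368 (1.58 ± 0.38, adjusted p = 0.0442), asRNA:CR45974 (1.28 ± 0.29, adjusted p = 0.0236) and asRNA:CR45121 (1.05 ± 0.25, adjusted p = 0.0438) complete the 12 largest increases. Both antisense RNAs overlap a gene on the other strand, so their reads cannot be told apart from it without strand. The calls of CG32368 and asRNA:CR45121 ended in 7 and 8 of the 8 fits with 1 library left out, those of CG3397, asRNA:CR45974 and DNaseII in 5 and that of Eh in 4.

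The genes that differed lay mostly on chromosome 3, which carries Rel. Arms 3L and 3R held 97 of the 126 (77%) and 44.1% of the tested genes. The share called was 1.72% on 3L and 1.48% on 3R, against 0.237% on X, 0.301% on 2L and 0.539% on 2R, and 1 of 97 tested genes on chromosome 4. Of the 103 called genes that did not rise with injury in wild type, 84 lay on chromosome 3, and of the 23 that did, 13. Between the uninjured genotypes the share called was 2.54% on 3L, 1.92% on 3R and at most 0.997% on X, 2L and 2R. With only the 8 injured libraries in the fit, 37 of 57 calls were on chromosome 3, and without homozygous injured library 1 it was 84 of 113.

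Along 3R the share called did not fall steadily with distance from Rel. Of 24 tested genes within 0.1 Mb, 0 were called, besides Rel. Between 0.1 and 1 Mb it was 11 of 261 (4.21%), between 1 and 2 Mb 2 of 259 (0.772%), between 2 and 5 Mb 18 of 735 (2.45%), between 5 and 10 Mb 10 of 587 (1.7%) and beyond 10 Mb 9 of 1575 (0.571%). In the bin from 0.1 to 1 Mb, Unc-115b, p24-2 and Unc-115a lie side by side at 3R:9687060-9705417. Over all arms, 27 called genes fell into 10 groups whose midpoints were at most 20 kb apart, and within each group all members moved the same way: the cecropins, the diptericins and the GstD genes are among these groups, as is Listericin with CG34227 on 2R. Of all 126 calls 105 were lower, so a shared direction within small groups is largely given. Reads can also be shared within some groups, such as the cecropins and the GstD genes. Whether linked sequence of the deletion chromosome or the loss of Rel goes with these differences cannot be told apart, since all homozygotes carry both.

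**Figure D5:**
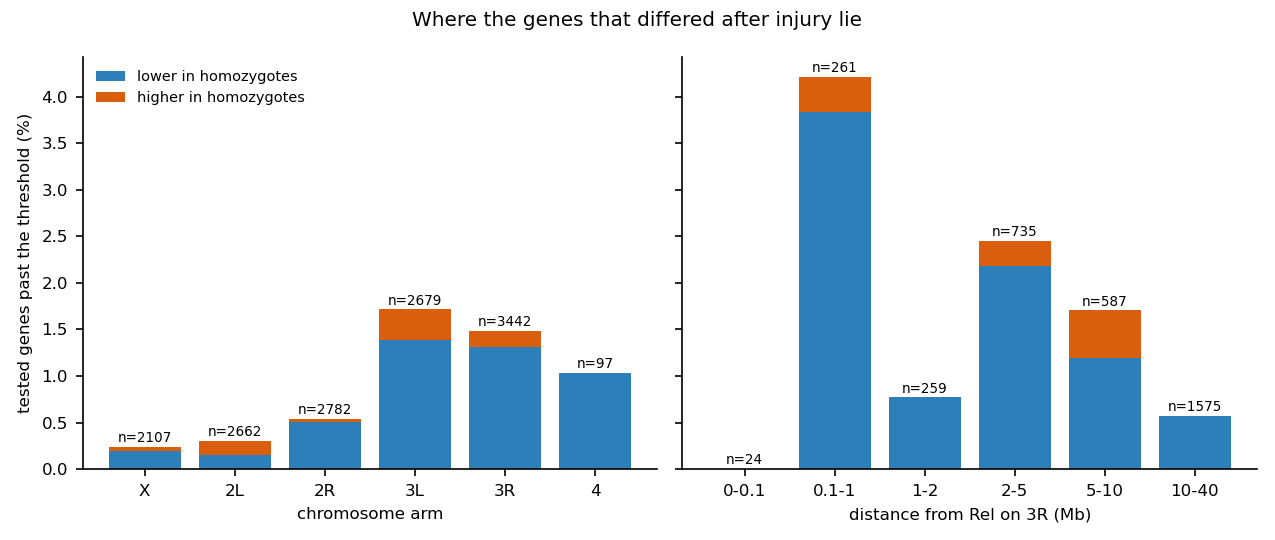
Share of tested genes called after injury, in percent, by chromosome arm on the left and by distance from Rel on 3R, Rel itself left out, on the right; blue is lower and orange higher in homozygotes, and n is the number of tested genes. Both arms of chromosome 3 stand above X, 2L and 2R, and the bin from 0.1 to 1 Mb is the highest at 4.21% while that within 0.1 Mb is at 0.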

How the data were processed

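Whole male flies of 3 genotypes, injured or not, gave 24 libraries in 6 groups of 4, assigned by the labels' line and injury status. Per the labels' protocols, RNA was taken with Qiagen kits and libraries were built from 1 µg of total RNA with a TruSeq kit. The submitters' processing notes name CASAVA, STAR 2.4.2a, RSEM 1.2.22, edgeR 3.10.5 and the build dm6, with no roles given. The deposited table holds expected counts per gene, which the authors stored as whole numbers (0 values were not whole), for 17768 genes, of which 1271 had no count. Strand handling in counting is not given in the sources used here.

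The expected counts were scaled by TMM and fitted with edgeR 4.0.16 (R 4.3.3): filterByExpr left 13868 genes, 1 mean was fitted per group over all 24 libraries (18 residual degrees of freedom), and quasi-likelihood F-tests were adjusted by Benjamini-Hochberg over all tested genes, with a threshold of 0.05. CPM values use the effective library size. The standard error is the log2 fold change divided by the square root of F. Totals were 6543632 to 14660491 counts per library. Where a group had 0 counts, the fold is a bound with 3 counts over the group; bounds and intervals (95%) cover counting error only. The scripts were tested on simulated counts. Gene positions come from an Ensembl annotation of dm6.

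Named genes are Rel, its 5 nearest neighbours on each side, the 12 largest increases and 12 largest decreases among calls whose groups did not overlap and whose higher mean reached 1 CPM, and, for each of 20 gene lists with a call, the 2 to 4 members lowest in adjusted p; members of the 4 immune lists may all be named. Other genes are said to be chosen after their values were seen. The comparison and the lists were chosen with earlier results of these data known. Alternatives were RLE size factors, DESeq2 1.42.0, 2 other filters, a replicate block, a fit of only the 8 libraries compared, and leaving out each library.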

Additional observations from a re-analysis of the deposited data

Results flagged for a closer look

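For genes named above, though not all of them, the injured groups of 4 libraries were examined for 1 library far from the other 3. In all 141 such groups were examined, and groups with at most 3 counts were left out. The measure was Dixon's ratio of the gap to the nearest library over the whole range, at its 95% critical value. CG34227 and Spn88Eb are among the named genes not examined. Chance flags about 1 group in 20, and 10 were found. Of the lower genes, CecC was at 0.203 CPM in homozygous injured library 3 against 0.146 to 0.155 CPM in the others, a difference of single counts. GstD5 was at 19.0 CPM in homozygous library 4 against 3.41 to 4.68 CPM. Listericin was at 39.0 CPM in heterozygous library 4 against 93.8 to 104 CPM. ppk6 was at 5.73 CPM in heterozygous library 3 against 3.76 to 3.95 CPM, and at 1.202 CPM in homozygous library 4 against 0.407 to 0.465 CPM. sad was at 10.2 CPM in heterozygous library 2 against 5.49 to 6.27 CPM. yellow-e, a gene of the yellow family, was at 26.2 CPM in homozygous library 2 against 16.1 to 16.4 CPM. Homozygous library 1, which stood apart from its group, accounts for the other 3. It held 106 CPM of nkd against 44.9 to 49.1 CPM, 40.9 CPM of hyx against 28.9 to 29.0 CPM and 9.92 CPM of Mst85C against 7.32 to 7.59 CPM. hyx and Mst85C are neighbours of Rel and were not called.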

How the results depend on the processing

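RLE size factors, no filter, a filter at 1 CPM in 4 libraries and DESeq2 each kept at least 125 of the 126 calls after injury. The fit of only the 8 injured libraries, which has fewer libraries to estimate the spread, called 57 genes (51 lower, 6 higher; 54 shared with the 126), 37 of them on chromosome 3. DESeq2 called more genes after injury, 181 in all, 147 lower and 34 higher. With 1 library left out the count was 89 to 142, with 75 to 122 lower and 12 to 20 higher, and 73 of the 126 calls held in each of the 8 fits. These 73 were 66 of the 105 lower genes and 7 of the 21 higher ones. Between uninjured genotypes DESeq2 called 388 genes (292 lower, 96 higher), the fit of only those 8 libraries 95 (72 and 23), with 30 calls shared between the states in place of 77, and the leave-one-out fits 107 to 607 (89 to 470 lower, 13 to 137 higher). For the difference of responses DESeq2 called 1 gene, higher. With the replicate number as a block 122 genes were called, 116 shared, and 8 antimicrobial peptides. Same-numbered libraries had correlations of deviations of -0.117, 0.0988, -0.390 and 0.340. The same number was the best match for homozygous libraries 2 and 4 and not for 1 and 3. With so few libraries these values cannot decide whether the numbers pair the samples. With 1 library left out, 5 genes that did not pass changed sign: PGRP-SD ran from -0.43 to 0.22, Nmdmc from -0.37 to 0.041 and Mst85C from -0.28 to 0.11, positive without heterozygous library 1, and IM1 from -0.065 to 0.36 and IM2 from -0.12 to 0.33, negative without homozygous library 2. PGRP-SC1b passed with DESeq2 (adjusted p = 0.00563), as did Hsp26 (0.0456). The causes were not tested. Depth limits genes near 3 counts, which are 0.205 to 0.447 CPM.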

Other observations

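Genes higher in homozygotes also include CG18473 and qjt, and lower ones yellow-e and CG34227, all 4 chosen after their values were seen. CG18473 had means of 43.5 ± 2.2 CPM in injured heterozygotes and 68.9 ± 9.14 CPM in injured homozygotes, with 14.4 ± 3.11 CPM in injured wild type. qjt had 23.1 ± 1.04, 37.7 ± 6.41 and 11.6 ± 0.956 CPM in the same order of groups. yellow-e, of the yellow family, was lower, with 44.1 ± 8.64 CPM in heterozygotes and 18.8 ± 4.95 CPM in homozygotes, while injured wild type had 47.1 ± 10.7 CPM. CG34227, the neighbour of Listericin, had 6.84 ± 2.29 and 1.999 ± 1.22 CPM, and 6.51 ± 2.93 CPM in injured wild type. All 4 passed the test between the injured genotypes (adjusted p 0.00408 to 0.0112). For yellow-e and CG34227 the wild-type mean was close to that of heterozygotes, while for CG18473 and qjt it lay below both.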
